A study of Mus musculus with 6 samples.

Results

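The genes described here encode carriers that move amino acids across the plasma membrane of C2C12 cells, mouse myoblasts grown as a line that can be differentiated into multinucleate myotubes. They were chosen by symbol from the deposited count table, as the rows Slc7a1, Slc7a3, Slc7a5, Slc3a2, Slc7a11, Slc38a1, Slc38a2, Slc1a4, Slc1a5 and Slc6a9, which are 10 of its 24421 symbols. All 10 matched a row, and 9 of them had enough reads to be tested. The cells of one group had received a lentivirus with a hairpin against Gaa (shGAA, n = 3 libraries) and those of the other a lentivirus with a scrambled hairpin (shScrambled, n = 3 libraries). Both groups were puromycin selected, taken through differentiation in horse serum medium with glucose and glutamine, and titled Fed, a word the labels leave unexplained. Gaa encodes lysosomal acid alpha-glucosidase, which frees glucose from glycogen inside lysosomes, and the series is about glycophagy, the autophagy of glycogen. The number of hairpin sequences is not given in the sources used here, nor is it stated whether libraries of a group came from separate cultures. If they did not, the p-values reflect technical spread alone.

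Cells cannot make essential amino acids, and carriers set how fast these and the exchangeable neutral amino acids enter and leave. The products of Slc7a5 and Slc7a11 reach the cell surface in complex with the glycoprotein encoded by Slc3a2. They are linked to this glycoprotein by a disulphide bond, and it carries no amino acid itself. Slc38a2 and several other members are classical targets of the amino acid response, in which shortage of amino acids activates the kinase GCN2 (Eif2ak4), raises translation of the transcription factor ATF4 and so raises transcription of carriers and synthetic enzymes. In muscle these carriers supply leucine and glutamine to protein synthesis and to the mTORC1 kinase, which senses amino acids at the lysosome.

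The libraries held 9224038 to 10430270 counts, and TMM scaling factors lay between 0.979 and 1.02. The target was lower in every shGAA library, with Gaa at 47.5 to 51.9 CPM (read counts relative to the TMM-scaled library size) in shGAA and 106 to 124 CPM in shScrambled, a log2 fold change of -1.25 ± 0.07 (SE, n = 3 per group, adjusted p = 1.09e-09). One library, shScrambled 1, differed from its replicates more than any other did. Its chi-square per degree of freedom against shScrambled 2 and 3 was 5.87 and 5.31, whereas the other pairs within a group gave 1.95 to 2.54. Results that turn on this library are given with and without it. Of the 16 myotube markers 14 matched a symbol, and their summed level was 2334 to 2544 CPM in shGAA and 3257 to 3631 CPM in shScrambled. Of 13 tested 10 were called lower, beside 19.7% lower over all tested genes. One of the 10, Cav3, had 10, 11 and 9 counts in the shGAA libraries and 28, 11 and 21 in those of shScrambled. Its shGAA libraries alone would not have passed the filter on low counts. Its entry to the test thus rested on its shScrambled libraries, in which it was higher. Desmin (Des) was at 1664 ± 82.0 CPM in shGAA and 2047 ± 37.2 CPM in shScrambled, and the myogenic factor Myog at 37.3 ± 1.19 and 50.2 ± 7.59 CPM, both called lower, while the muscle creatine kinase gene Ckm was low in both groups, at 6.35 ± 0.270 CPM in shGAA and 12.1 ± 2.59 CPM in shScrambled. The 16 proliferation markers summed to 1565 to 1700 CPM in shGAA and 2026 to 2302 CPM in shScrambled, and all 16 were called lower, beside the same 19.7%. The part of these 2 shifts in the carrier results was not tested, and in bulk RNA fewer cells of a type and less RNA per cell cannot be told apart.

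Of the 9 tested carrier genes, Slc3a2, Slc7a11, Slc1a4 and Slc6a9 were higher in shGAA and Slc38a2 was lower, while Slc7a1, Slc7a5, Slc38a1 and Slc1a5 did not pass the test. Over all 11801 tested genes 38.2% were called, 18.5% as higher and 19.7% as lower. The 5 called carriers were also the 5 whose groups did not overlap in CPM, a property of 49.6% of all tested genes (24.7% with shGAA higher and 24.9% with shGAA lower). The shScrambled libraries of Slc7a11 alone would not have passed the filter on low counts. Its entry to the test thus rested on its shGAA libraries, in which it was higher. The median log2 fold change of the 9 genes was 0.02 and that of all tested genes 0.01. When libraries were scaled by their totals alone 60.0% of all calls were higher, from 2809 higher and 1872 lower genes, against 48.4% with TMM scaling, from 2182 and 2330. Adjusted p-values are those of edgeR's quasi-likelihood test adjusted over every tested gene by the Benjamini-Hochberg method, and a gene is called at an adjusted p under 0.05.

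**Figure D1:**
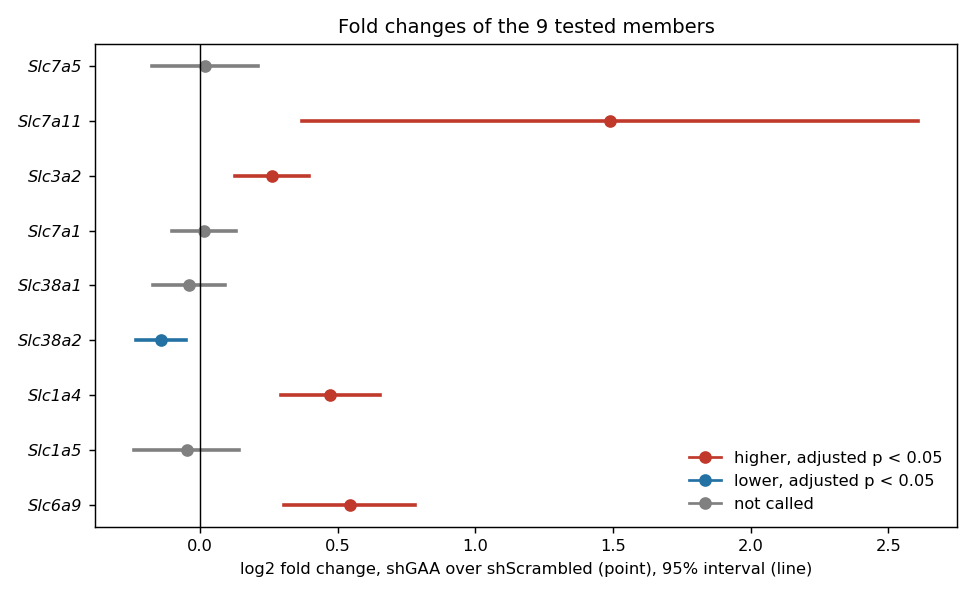
Log2 fold change of each tested carrier gene, shGAA over shScrambled (horizontal axis), with its 95% interval as a line and the genes in rows by role. Slc3a2, Slc7a11, Slc1a4 and Slc6a9 lie to the right of 0 and Slc38a2 to the left, and the interval of Slc7a11, from 0.37 to 2.61, is the widest.

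Among the genes of the heteromeric carriers, the shared heavy chain was higher in shGAA and the light chain of the leucine carrier was not called. Slc3a2 (chromosome 19, 8706882 to 8723369, minus strand, GRCm38) encodes the heavy chain 4F2hc, also called CD98. It was at 195, 199 and 195 CPM in shGAA 1 to 3 and at 184, 153 and 155 CPM in shScrambled 1 to 3. All shGAA libraries were above all shScrambled libraries, and shScrambled 1 was the closest to them. The log2 fold change was 0.26 ± 0.06 (adjusted p = 0.00408), and it was 0.35 (adjusted p = 2.34e-07) without shScrambled 1. It stayed called under all 13 alternatives tried, with an adjusted p of 2.34e-07 to 0.0294.

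Slc7a5 (chromosome 8, 121881150 to 121907694, minus strand) encodes LAT1, which exchanges large neutral amino acids such as leucine against glutamine. Its level was 125, 118 and 116 CPM in shGAA 1 to 3 and 138, 106 and 110 CPM in shScrambled 1 to 3. The groups overlapped, since shScrambled 1 was the highest of all 6 libraries and the other shScrambled libraries were the lowest. The log2 fold change was 0.02 ± 0.09 (adjusted p = 0.897), with a 95% interval from -0.18 to 0.21. Without shScrambled 1 it was 0.14 and passed the test (adjusted p = 0.0388). The other 12 alternatives gave no call, up to an adjusted p of 0.929, and the sign was negative without shGAA 1, shScrambled 2 or shScrambled 3, down to -0.05.

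Slc7a11 (chromosome 3, 49892526 to 50443614, minus strand) encodes xCT, which imports cystine in exchange for glutamate and thereby feeds glutathione synthesis. It was close to the detection limit, with 23, 28 and 26 counts in the shGAA libraries and 20, 2 and 4 counts in those of shScrambled, in the order of their numbers. The mean level was 2.59 ± 0.344 CPM in shGAA and 0.899 ± 1.01 CPM in shScrambled. The groups did not overlap, but shScrambled 1, at 2.05 CPM, lay just under the lowest shGAA library, at 2.35 CPM. The log2 fold change was 1.49 ± 0.51 (adjusted p = 0.0386). Summed over libraries, 77 counts stood against 26, a ratio of 2.82 (95% exact interval from counting 1.79 to 4.59). Without shScrambled 1 the sums were 77 and 6 counts, a ratio of 8.04 (3.53 to 22.6), and the fitted log2 fold change was 2.96 (adjusted p = 1.54e-06). The call was lost when any other library was left out, with log2 fold changes of 1.04 to 1.55 and adjusted p-values of 0.0718 to 0.119. The intervals on sums allow for counting error and nothing else. Neither they nor the p-values allow for its entry to the test through the shGAA libraries, in which it was higher.

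The windows before the transcript starts of Slc7a11 and Slc3a2 are shown because the former holds, and the latter lacks, the core letters of the element that ATF4 dimers bind. They run from 250 bases before to 30 after the start (RefSeq, GRCm38.p6, minus strand for both), at chr3:50443584-50443863 for Slc7a11 and chr19:8713868-8714147 for Slc3a2, and capitals mark each match to TGATGNAA on either strand.
Slc7a11: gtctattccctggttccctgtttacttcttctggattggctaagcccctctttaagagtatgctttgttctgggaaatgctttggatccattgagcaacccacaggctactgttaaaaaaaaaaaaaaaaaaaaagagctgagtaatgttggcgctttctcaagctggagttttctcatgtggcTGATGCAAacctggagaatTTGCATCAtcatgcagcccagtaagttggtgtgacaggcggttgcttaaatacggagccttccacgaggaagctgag
Slc3a2: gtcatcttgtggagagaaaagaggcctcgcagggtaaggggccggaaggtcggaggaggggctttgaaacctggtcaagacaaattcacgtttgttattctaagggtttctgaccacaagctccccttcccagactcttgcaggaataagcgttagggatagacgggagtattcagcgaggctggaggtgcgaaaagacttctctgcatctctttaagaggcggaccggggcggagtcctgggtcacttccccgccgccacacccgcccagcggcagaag
The windows are printed in the direction of the gene. In Slc7a11 the letters occur in that direction at positions -66 to -59 and as their reverse complement at -47 to -40, counted from the start. In a search from 250 bases before to 50 after the start, 3.97% of 32851 RefSeq promoters held at least 1 match, and 0.07% held at least 2. Among the 11541 promoters of tested genes 2.19% held a match. A match is a string of letters and not a shown binding site, and the lack of one in a window says nothing of the rest of the gene. The RefSeq table had 9 windows for 6 carrier genes, and only those of Slc7a11 and Slc1a4 held this string, while the single windows of Slc3a2 and Slc38a2, both windows of Slc7a1 and the 3 windows of Slc6a9 did not. In Slc38a2 the described amino acid response element lies in an intron, outside such a window. The string TGACNNNGC, the core of the element bound by NRF2, was found in 4 of the 9 windows, 1 of Slc7a1, 1 of Slc38a2 and 2 of Slc6a9. It was in 12.4% of all promoters and in 14.4% of those of tested genes. The E-box CACGTG, which MYC and TFEB bind and which lies within the CLEAR element of lysosomal genes, was in 0 of the 9 windows. It was in 7.15% of all promoters and in 9.9% of those of tested genes.

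The balance of light to heavy chain was compared within each library, which removes the scaling between libraries. The log2 ratio of Slc7a5 to Slc3a2 CPM was -0.65, -0.76 and -0.75 in the shGAA libraries, and in those of shScrambled it was -0.42, -0.53 and -0.50. The ratio was thus lower in every shGAA library, also beside shScrambled 1, in which both genes were high. The group means differed by -0.24 (two-sided exact permutation test, p = 0.10, adjusted p = 0.15 over the 3 ratios tested, n = 3 per group), and 0.10 is the smallest p that 3 against 3 libraries can give. The 3 ratios with Slc7a11 or Slc7a3 were not formed, because these genes had fewer than 10 counts in some library.

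**Figure D2:**
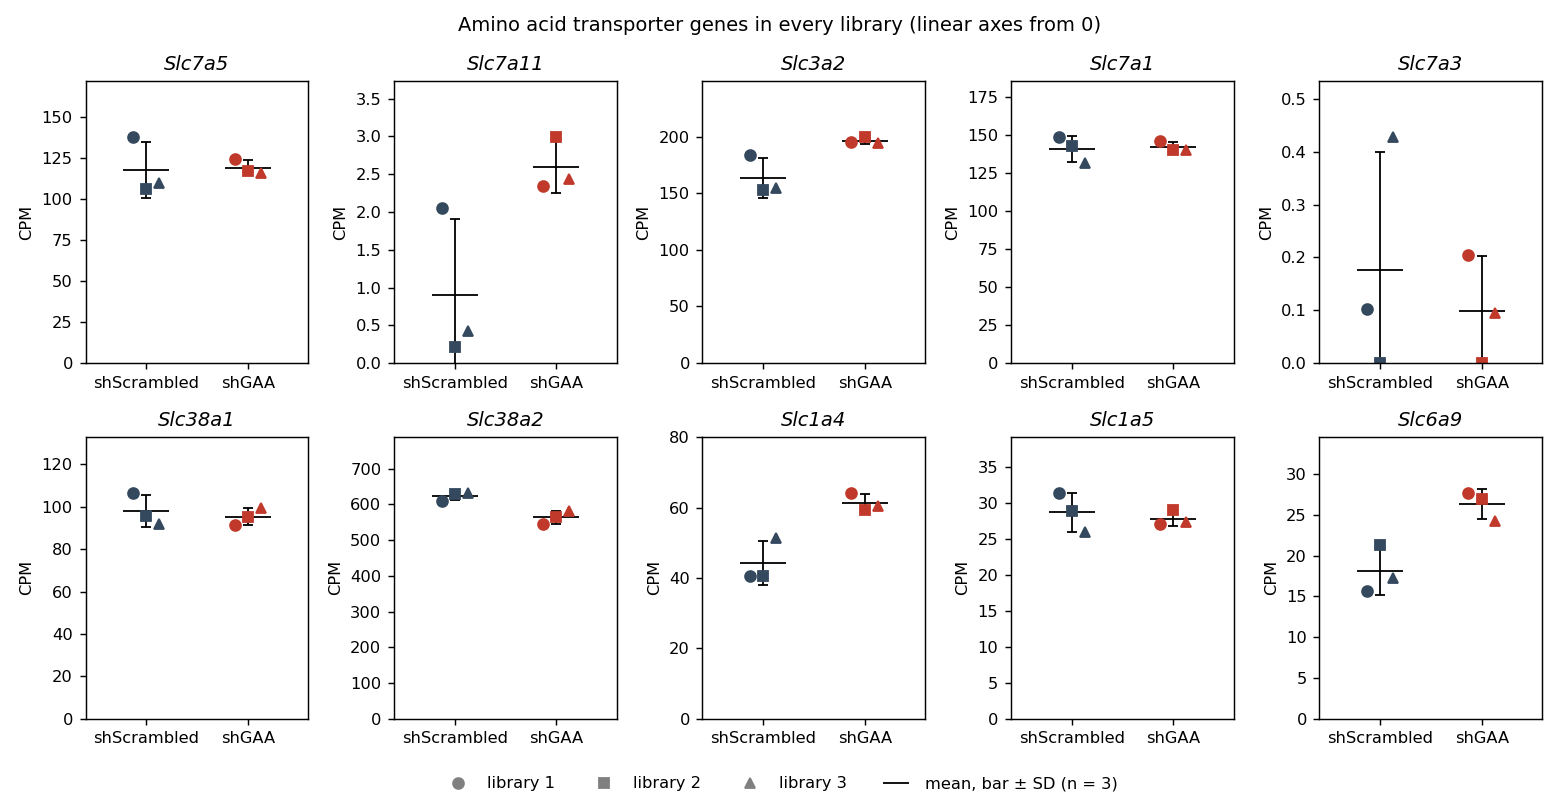
Level of each of the 10 carrier genes in CPM (vertical axes, linear from 0) in the 3 shScrambled and 3 shGAA libraries, with the symbol giving the library number, a horizontal line the mean and the bar the SD, cut off at 0. shScrambled 1 (circle) is the highest shScrambled library for Slc7a5, Slc7a11, Slc3a2, Slc7a1, Slc38a1 and Slc1a5, and for Slc7a11 it is at 2.05 CPM against 0.215 and 0.427 CPM in the other shScrambled libraries.

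The carriers of cationic amino acids gave no call. Slc7a1 (chromosome 5, 148327410 to 148399904, minus strand) encodes CAT-1, which imports arginine, lysine and ornithine in most cells. It was at 146, 140 and 140 CPM in shGAA 1 to 3 and at 148, 143 and 132 CPM in shScrambled 1 to 3, so that the shScrambled libraries spanned the shGAA values. The log2 fold change was 0.01 ± 0.06 (adjusted p = 0.868), and its 95% interval of -0.10 to 0.13 corresponds to ratios between 0.931 and 1.09. The paralog Slc7a3 (X chromosome, 101079210 to 101086020, minus strand), which encodes CAT-3, was nearly silent: the shGAA libraries had 2, 0 and 1 counts, the shScrambled libraries 1, 0 and 4. It was left out by the filter, and no difference was detectable at this depth.

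Of the sodium-coupled neutral carriers, the most abundant member was slightly lower in shGAA. Slc38a2 (chromosome 15, 96687392 to 96699730, minus strand) encodes SNAT2, which concentrates alanine, serine and glutamine in the cell and is the best studied carrier of the amino acid response. It was at 546, 565 and 582 CPM in shGAA 1 to 3 and at 609, 629 and 632 CPM in shScrambled 1 to 3. Every shGAA library was below every shScrambled library, by a mean of 564 ± 17.8 against 623 ± 12.4 CPM. The log2 fold change was -0.14 ± 0.04 (adjusted p = 0.0143), a 1.10-fold reduction. The call was lost when libraries were scaled by their totals alone (-0.10, adjusted p = 0.0834). It was also lost without shGAA 1 (adjusted p = 0.0742), shGAA 2 (0.0527) or shScrambled 3 (0.0551), within a range of 0.00403 to 0.0834 over all 13 alternatives. Slc38a1 (chromosome 15, 96571418 to 96642913, minus strand), which encodes the related glutamine carrier SNAT1, was at 91.5, 95.2 and 99.3 CPM in shGAA 1 to 3 and at 107, 95.6 and 91.9 CPM in shScrambled 1 to 3. Its groups overlapped, the log2 fold change was -0.04 ± 0.06 (adjusted p = 0.647) and the 95% interval ran from -0.17 to 0.09. The log2 ratio of Slc38a1 to Slc38a2 was -2.57 ± 0.01 in shGAA and -2.67 ± 0.14 in shScrambled (SD, n = 3 per group). The shScrambled values spanned the shGAA ones (two-sided exact permutation test, p = 0.40, adjusted p = 0.40).

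Of the exchangers of small neutral amino acids, Slc1a4 was higher in shGAA and Slc1a5 was not called. Slc1a4 (chromosome 11, 20302180 to 20332713, minus strand) encodes ASCT1, an exchanger of alanine, serine, cysteine and threonine. It was at 64.2, 59.3 and 60.3 CPM in shGAA 1 to 3 and at 40.7, 40.5 and 51.3 CPM in shScrambled 1 to 3. The groups did not overlap, with shScrambled 3 the closest, and the log2 fold change of 0.47 ± 0.08 (adjusted p = 0.000345) was a 1.39-fold rise. It stayed called under all 13 alternatives, between 0.41 and 0.59 and with an adjusted p of 1.61e-09 to 0.00440. Slc1a5 (chromosome 7, 16781340 to 16798274, plus strand) encodes ASCT2, the main glutamine exchanger of dividing cells. It was at 27.1, 28.9 and 27.3 CPM in shGAA 1 to 3 and at 31.3, 28.8 and 25.9 CPM in shScrambled 1 to 3. The groups overlapped, and the log2 fold change was -0.05 ± 0.09 (adjusted p = 0.696), with a 95% interval from -0.24 to 0.14. Within libraries Slc1a4 exceeded Slc1a5 by 2.37, 2.05 and 2.21 times in CPM in shGAA 1 to 3 and by 1.30, 1.41 and 1.98 times in shScrambled 1 to 3. On the log2 scale the means of this ratio were 1.14 ± 0.10 and 0.62 ± 0.32, without overlap between the groups (two-sided exact permutation test, p = 0.10, adjusted p = 0.15, n = 3 per group).

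The Slc1a4 window is shown because it is the other carrier promoter with the ATF4 core string. It lies at chr11:20332684-20332963 (RefSeq, GRCm38.p6, minus strand) and runs from 250 bases before to 30 after the start, with the match in capitals.
Slc1a4: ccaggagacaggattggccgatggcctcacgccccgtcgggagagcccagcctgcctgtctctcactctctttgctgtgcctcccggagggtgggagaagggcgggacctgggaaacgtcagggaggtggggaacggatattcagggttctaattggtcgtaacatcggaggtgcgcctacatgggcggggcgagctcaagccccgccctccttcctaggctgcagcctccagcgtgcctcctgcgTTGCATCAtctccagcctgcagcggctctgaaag
In the printed direction, which is that of the gene, the match is the reverse complement of the letters. It spans the start, from position -4 to 4.

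**Figure D3:**
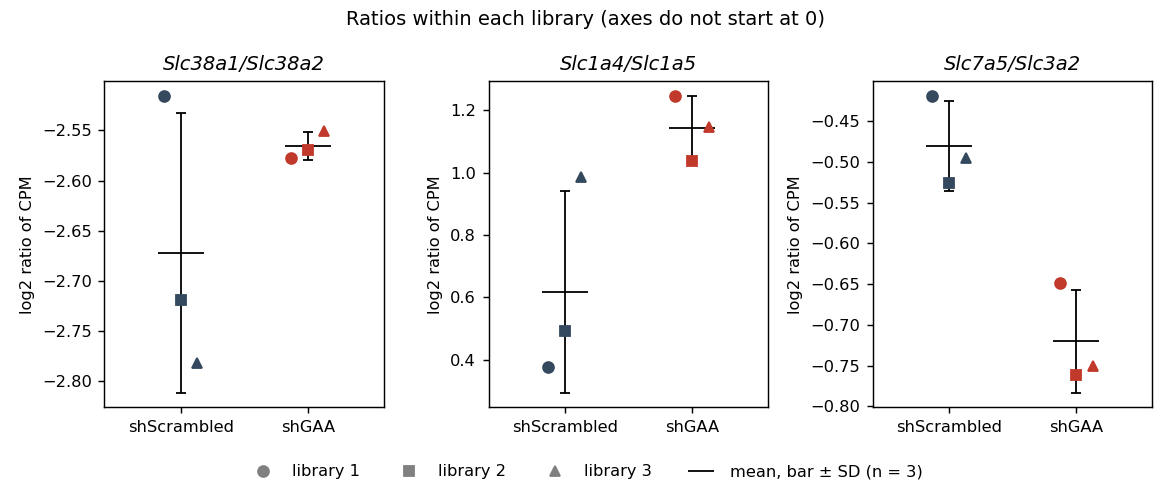
Log2 ratio of CPM within each library (vertical axes, which do not start at 0) for Slc38a1 over Slc38a2, Slc1a4 over Slc1a5 and Slc7a5 over Slc3a2, with mean and SD (n = 3 libraries per group). The Slc1a4 to Slc1a5 ratio is higher, and the Slc7a5 to Slc3a2 ratio lower, in each shGAA library than in every shScrambled one.

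Slc6a9 (chromosome 4, 117834506 to 117875198, plus strand) encodes GlyT1, a sodium- and chloride-coupled importer of glycine. It was at 27.7, 27.0 and 24.2 CPM in shGAA 1 to 3 and at 15.6, 21.3 and 17.3 CPM in shScrambled 1 to 3. No shScrambled library reached the lowest shGAA library, and the log2 fold change of 0.54 ± 0.11 (adjusted p = 0.00115) was a 1.46-fold rise. Under the 13 alternatives it lay between 0.45 and 0.68 and was always called, with an adjusted p of 4.01e-06 to 0.00926. In GENCODE M21, 30.2% of its exonic bases overlap exons of B4galt2, Ccdc24 and Gm17114 on the opposite strand, and without knowledge of strand in the counting their reads cannot be told apart. Of these B4galt2, a galactosyltransferase gene, was at 49.5 ± 5.37 against 43.8 ± 3.41 CPM (log2 fold change 0.17 ± 0.09, adjusted p = 0.115), and Ccdc24 at 1.08 ± 0.184 against 1.72 ± 0.477 CPM (-0.68 ± 0.34, adjusted p = 0.131). Slc6a9 also shares 26.3% of its 50-base stretches with transcripts of other genes, most with Ccdc24. The other 9 carrier genes have no exon overlapping that of another gene, and share between 0% and 4.23% of such stretches.

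The deviation of shScrambled 1 from the mean of shScrambled 2 and 3 was not even across the carriers. On the log2 scale it was 1.65 for Slc7a11, 0.35 for Slc7a5, 0.26 for Slc3a2, 0.19 for Slc1a5, 0.18 for Slc38a1 and 0.11 for Slc7a1, so these genes were higher in it. It was -0.29 for Slc6a9, -0.16 for Slc1a4 and -0.05 for Slc38a2, and over all tested genes its median was 0.00. The same library was also 0.49 higher in the median myotube marker, 0.22 in the median undifferentiated myoblast marker and 0.15 in the median proliferation marker, and the part of these in its carrier values was not tested. Without it 5 carriers were called higher, the 4 above and Slc7a5, and 1 lower, against 40.9% of all tested genes.

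**Figure D4:**
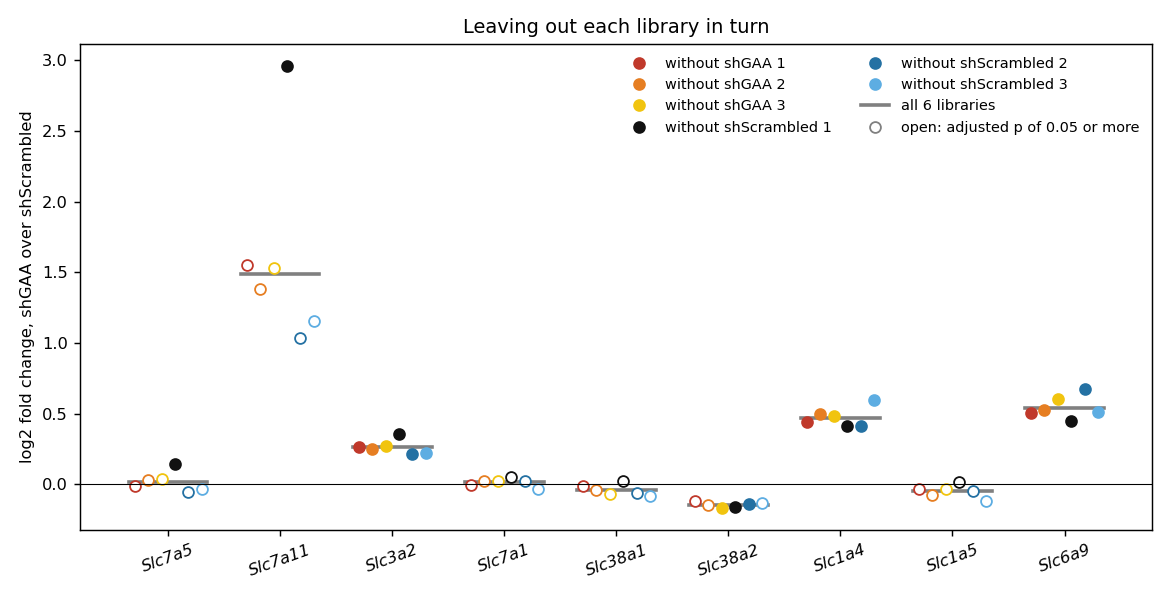
Log2 fold change, shGAA over shScrambled (vertical axis), of each tested carrier gene when each library is left out in turn (coloured points) and with all 6 libraries (grey line), where open points have an adjusted p of 0.05 or more. Leaving out shScrambled 1 (black) moves Slc7a11 from 1.49 to 2.96, and every other omission leaves that gene uncalled.

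Levels were compared between genes per length, as CPM per kilobase of exon in GENCODE M21, which may differ from the gene models used for counting. In shScrambled the order was Slc38a2 (70.5 ± 1.40), Slc3a2 (46.4 ± 4.99), Slc7a5 (31.8 ± 4.67), Slc7a1 (12.2 ± 0.737), Slc1a4 (11.3 ± 1.58), Slc1a5 (6.87 ± 0.647), Slc38a1 (5.69 ± 0.442), Slc6a9 (3.51 ± 0.564), Slc7a11 (0.0646 ± 0.0723) and Slc7a3 (0.0467 ± 0.0589 CPM per kilobase, SD, n = 3). The ranges of neighbours were separate except for Slc7a1 with Slc1a4 and Slc7a11 with Slc7a3, which overlapped. In shGAA the order changed at one place, where Slc1a4 (15.6 ± 0.649) stood above Slc7a1 (12.3 ± 0.302) without overlap, and Slc38a1 (5.53 ± 0.227) overlapped Slc6a9 (5.12 ± 0.354). Slc38a2 made up 31.3% to 33.4% of the summed length-scaled level of the 10 genes in shGAA and 34.7% to 39.0% in shScrambled. Slc3a2 made up 28.0% to 28.6% and 23.7% to 26.3%. The sum itself was 197.0 to 197.3 CPM per kilobase in shGAA, within the shScrambled range of 182 to 198.

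Most other plasma membrane carriers were not detected, too low to test or not called. Of 37 listed genes 12 had no count in any library and 13 were tested, of which 1 rose, 2 fell and 10 did not pass, with a median log2 fold change of -0.16, beside 38.2% called over all tested genes. Slc6a6, the taurine carrier, was the most abundant of them. It was at 352, 364 and 350 CPM in shGAA 1 to 3 and at 476, 484 and 435 CPM in shScrambled 1 to 3, without overlap, and fell by 0.39 ± 0.05 on the log2 scale (adjusted p = 8.71e-06). Slc6a17, a carrier of neutral amino acids best known from synaptic vesicles, fell by 0.46 ± 0.10 (adjusted p = 0.00174). Slc7a2, which encodes the inducible cationic carrier CAT-2, rose by 0.47 ± 0.11, from 21.4 ± 3.01 to 29.7 ± 2.60 CPM (adjusted p = 0.00221), and 6.95% of its exonic bases overlap a gene on the opposite strand. Without shScrambled 1 the counts were 2 higher and 4 lower, and scaling by totals alone gave 2 higher.

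Carriers of the lysosomal membrane, for amino acids and in part for peptides, nucleosides or sialic acid, formed another list. Of 11 genes 9 were tested, of which 5 rose, 0 fell and 4 did not pass, with a median of 0.34, beside 18.5% higher and 19.7% lower over all tested genes. Only 1 tested member, Slc38a9, lay below 0, with an unadjusted p of 0.728 in edgeR's quasi-likelihood test. A called fall was therefore unlikely under any setting, and the 0 falls under each of the 13 alternatives add no support. The list was chosen with earlier results of these data known, so its counts are a description. Slc38a7, a lysosomal exporter of glutamine and asparagine from the same family as the SNAT carriers, was at 68.4, 70.3 and 69.6 CPM in shGAA 1 to 3 and at 37.9, 41.5 and 42.1 CPM in shScrambled 1 to 3. The groups were far apart, and it rose by 0.78 ± 0.07 (adjusted p = 1.32e-07). Ctns, the cystine exporter cystinosin, was at 41.9, 40.2 and 36.7 CPM in shGAA 1 to 3 and at 20.2, 27.9 and 24.7 CPM in shScrambled 1 to 3. It rose by 0.71 ± 0.10 (adjusted p = 5.15e-05). Slc17a5 (sialin, an exporter of sialic acid) rose by 0.65 ± 0.12 (adjusted p = 0.000513) and Slc36a1, a proton-coupled exporter of small amino acids, by 0.34 ± 0.09 (adjusted p = 0.00526). The arginine sensor gene Slc38a9, which reports lysosomal amino acids to mTORC1, was at 12.55 ± 1.24 against 12.98 ± 1.77 CPM (-0.05 ± 0.13, adjusted p = 0.807).

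**Figure D5:**
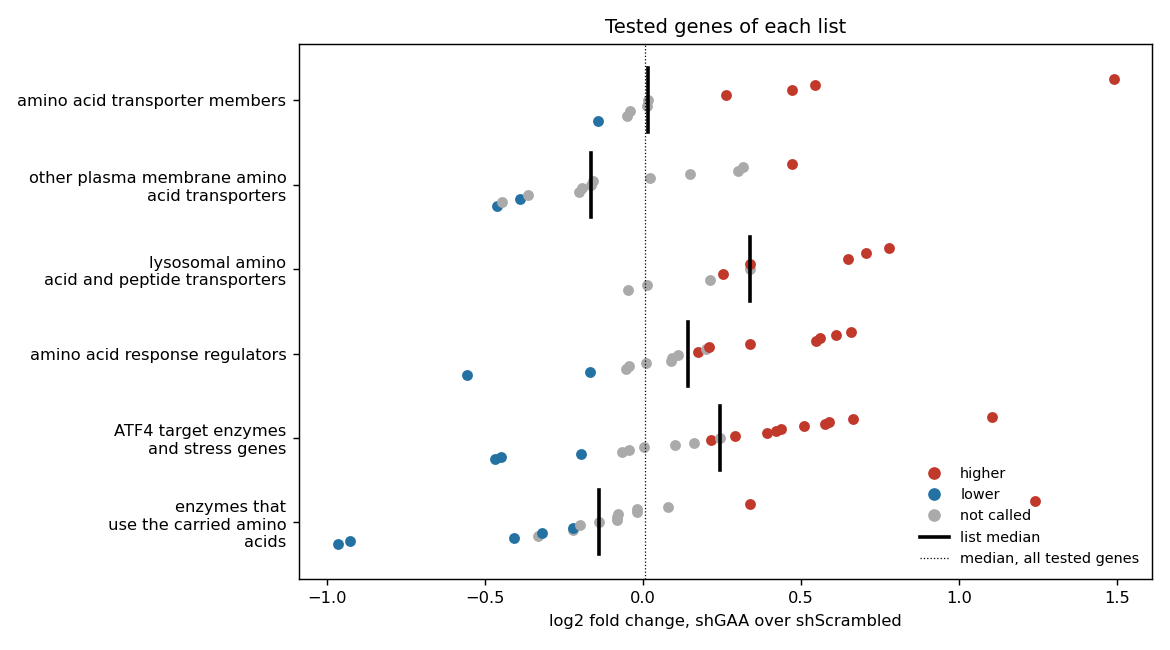
Log2 fold change, shGAA over shScrambled (horizontal axis), of every tested gene in the carrier set and in 5 lists of related genes, with list medians as bars and the median of all tested genes dotted. The medians are 0.34 for the lysosomal carriers, 0.24 for the ATF4 target genes and 0.02 for the carrier set.

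A list of 16 regulators held genes of the amino acid response and of other stress pathways, such as Eif2ak2 and Nfe2l2. All 16 were tested, of which 7 rose, 2 fell and 7 did not pass, with a median of 0.14. Over all tested genes 18.5% were higher and 19.7% lower. Atf4 itself was at 488, 466 and 457 CPM in shGAA 1 to 3 and at 462, 401 and 389 CPM in shScrambled 1 to 3. Its groups overlapped through shScrambled 1, and it rose by 0.17 ± 0.06 (adjusted p = 0.0286). The rise was 0.25 without shScrambled 1 (adjusted p = 1.99e-05), and its call was lost without shGAA 1, shGAA 2, shScrambled 2 or shScrambled 3, with adjusted p-values of 0.118, 0.0707, 0.0971 and 0.139. ATF4 is regulated mainly in translation, which RNA counts do not show. Ddit3, which encodes the stress factor CHOP, rose by 0.66 ± 0.08 (adjusted p = 3.68e-06), Sesn2, a leucine-binding inhibitor of mTORC1 signalling, by 0.55 ± 0.08 (adjusted p = 6.81e-05) and Atf5 by 0.34 ± 0.06 (adjusted p = 0.000241). Eif2ak2, the double-stranded RNA sensor PKR, rose by 0.61 ± 0.06 (adjusted p = 4.46e-07). The amino acid sensor GCN2 (Eif2ak4) was at 28.2 ± 2.31 against 26.1 ± 1.19 CPM (0.11 ± 0.09, adjusted p = 0.357) and Myc, a known activator of glutamine carriers, at 72.3 ± 0.851 against 74.5 ± 9.49 CPM (-0.04 ± 0.08, adjusted p = 0.676). Nfe2l2, which encodes NRF2, a known activator of Slc7a11, was at 227 ± 15.7 against 198 ± 26.7 CPM (0.20 ± 0.09, adjusted p = 0.115). It passed with no filter on low counts (adjusted p = 0.00125) and without shScrambled 1 (0.31, adjusted p = 5.99e-06). The 2 falls were 0 without shGAA 1 or shGAA 3, and 1 without shScrambled 1 or when scaled by totals alone.

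Of 21 listed enzymes and stress genes known as ATF4 targets 19 were tested, of which 10 rose, 3 fell and 6 did not pass, with a median of 0.24. Over all tested genes 18.5% were higher and 19.7% lower. Asns, which makes asparagine and is the textbook marker of the amino acid response, was at 108, 100.3 and 108 CPM in shGAA 1 to 3 and at 80.0, 62.1 and 69.8 CPM in shScrambled 1 to 3. It rose by 0.57 ± 0.08 (adjusted p = 3.88e-05), and shScrambled 1 was again the highest of its group. Gpt2, a mitochondrial alanine transaminase, rose by 0.59 ± 0.07 (adjusted p = 5.23e-06) and Aldh18a1, which starts proline synthesis from glutamate, by 0.42 ± 0.06 (adjusted p = 2.17e-05). Psat1, of serine synthesis, went the other way, at 243, 222 and 238 CPM in shGAA 1 to 3 and 336, 317 and 319 CPM in shScrambled 1 to 3, a fall of 0.47 ± 0.05 (adjusted p = 1.42e-06).

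A list of 24 genes held enzymes that use the imported amino acids and the mitochondrial carrier gene Slc25a44. Of these 17 were tested, of which 2 rose, 5 fell and 10 did not pass, with a median of -0.14. The calls over all tested genes were 38.2%, so the share of this list that was called lies near the background. Gss, which completes glutathione synthesis, was at 75.4, 75.3 and 72.7 CPM in shGAA 1 to 3 and at 89.7, 96.5 and 92.5 CPM in shScrambled 1 to 3, and fell by 0.32 ± 0.06 (adjusted p = 0.000247). Opposite-strand exons overlap 15.4% of its exonic bases, and one of these genes, Acss2, was itself lower (-0.41 ± 0.14, adjusted p = 0.0273). Gcsh, of the glycine cleavage system, fell by 0.41 ± 0.08 (adjusted p = 0.000921). Bckdha, a subunit of the enzyme that commits branched-chain amino acids to breakdown, rose by 0.34 ± 0.08 (adjusted p = 0.00257). Exons of B3gnt8, which had 5 to 10 counts in each library, overlap 61.7% of its own. The other called rise was Nos1, which makes nitric oxide from arginine, with 21, 19 and 25 counts in the shGAA libraries and 8, 8 and 10 in those of shScrambled. As for Slc7a11, its shScrambled libraries alone would not have passed the filter on low counts, so its entry rested on its shGAA libraries. The 5 falls were 3 in DESeq2 and without shGAA 1.

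Gene profiles most like those of the leading carriers were sought over the 6 libraries, by the root mean square difference of centred log2 CPM among 10078 candidates with a mean of at least 5 CPM. Closest to Slc1a4 were Dedd2 (0.03), the lysosomal mannosidase gene Man2b1 (0.05) and the proton pump subunit gene Atp6v0e2 (0.05), which had log2 fold changes of 0.50, 0.48 and 0.48. Such similar fold changes follow from choosing genes by their profile, and a shared function was not tested. Closest to Slc38a2 were Pcyt1a, Rela and Lpin2, each at a difference of 0.01, with log2 fold changes of -0.14 in all 3 and adjusted p-values of 0.0406, 0.0463 and 0.0660. The profile of Slc38a2 was nearly flat, so a small difference from it is easily reached.

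Markers of other cell types were also summed. The 17 markers of fibroblasts, adipocytes and bone cells summed to 1175 to 1351 CPM in shGAA and 1108 to 1149 CPM in shScrambled, with 4 of them at 0 in every library (Cidec, Ibsp, Plin1 and Tcf21), and the proteoglycan gene Dcn made up most of the sum, at 1109 ± 82.3 and 940 ± 14.2 CPM. Of 6 tested 2 rose and 2 fell, beside 18.5% higher and 19.7% lower over all tested genes. The part of these markers in the carrier results was not tested. The 15 leukocyte and endothelial markers summed to 6.203 to 8.002 CPM in shGAA and 6.08 to 8.05 CPM in shScrambled, and Cd3e, Cpa3, Itgam and Kit were at 0 in every library. Undifferentiated myoblast markers summed to 789 to 841 CPM in shGAA and 846 to 1018 CPM in shScrambled, with 3 of 10 tested higher and 2 lower, beside the same 18.5% and 19.7%. Most members went against that sum, since 8 of the 10 lay above 0 with a median of 0.15, and the most abundant, the syndecan gene Sdc4, was at 178 ± 6.81 CPM in shGAA and 363 ± 36.4 CPM in shScrambled.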

How the data were processed

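RNA sequencing counts of 6 C2C12 libraries were analysed. Unnormalised read counts, 1 value per symbol and library, were deposited by the authors, and per the submitters' processing notes mm10, HISAT2 2.1.0, Subread, FastQC and edgeR were used. How annotation, strand and multiply mapping reads were handled is not given in the sources used here. Genes were kept by filterByExpr (minimum count 10), scaled by TMM and tested with edgeR 4.0.16 in R 4.3.3 (robust quasi-likelihood fit, group only), with Benjamini-Hochberg adjustment. CPM is the count relative to TMM-scaled library size. SE is the coefficient over the square root of F. DESeq2 1.42.0, limma-voom (limma 3.58.1), other scalings, no filter, a non-robust fit, a replicate block and omission of each library were the alternatives. The pseudocount for log2 CPM profiles was 0.5. The code was tested on simulated data. The carriers and lists were chosen with earlier results of these data known. Named were the 10 carriers, Gaa, up to 4 called genes per list with the smallest adjusted p, Atf4, Nfe2l2, Eif2ak4, Myc, Slc38a9 and Slc36a1, and the 3 nearest profiles of the top carrier in each direction. Des, Myog, Ckm, Cav3, Dcn, Sdc4 and Slc25a44 were named outside this rule. List counts are descriptions. Windows of 300 bases came from RefSeq (GRCm38.p6). The last 20 bases of each carrier window occurred in a GENCODE M21 transcript of its gene.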

Additional observations from a re-analysis of the deposited data

How the results depend on the processing

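Over the 206 comparisons of counts and ratios with an alternative setting, 193 stayed within 1.5 times the value or kept their direction, and 13 moved, all of them counts of 5 or fewer. The ratios needed only to keep their direction. The 193 also hold the 0 falls of lysosomal carriers under each alternative, which add no support. The count of carriers called lower, 1 in the report, was 0 when scaled by totals alone and 0 to 1 when single libraries were left out, and that called higher 3 to 5. For other plasma membrane carriers the higher count was 2 with library size only, with 1 to 2 higher and 2 to 4 lower over the omissions. Lower response regulators numbered 1 with library size only and 0 to 2 over the omissions. Lower enzymes numbered 3 in DESeq2 and 3 to 5 over the omissions. Omitting 1 library gave 1674 to 2378 higher and 1866 to 2485 lower genes over the whole table. Slc3a2, Slc1a4 and Slc6a9 kept their call under all 13 alternatives, Slc38a2 under 9 and Slc7a11 under 8.

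The labels number the libraries 1 to 3 in both groups and do not say whether equal numbers pair them. Same-numbered libraries deviated from their group means with correlations of -0.04, 0.06 and -0.02 over 11801 genes, and not every library correlated best with its own number. These values showed no clear pairing by number, but they cannot exclude a weak one. With the replicate number as a block the same 5 carriers were called, 4 higher and 1 lower, with 2037 higher and 2197 lower genes over the whole table. The differences of the log2 ratios under the block were 0.11, 0.52 and -0.24, with sign-flip exact p-values of at least 0.25, the smallest this design allows. Depth limited Slc7a11 and Slc7a3, with sums of 103 and 8 counts over the 6 libraries.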

Other observations

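Enzymes of serine synthesis moved in opposite directions in shGAA. Beside the fall of Psat1, the enzyme before it, Phgdh, was at 191, 173 and 171 CPM in shGAA 1 to 3 and at 166, 142 and 153 CPM in shScrambled 1 to 3, and the enzyme after it, Psph, at 31.7, 28.3 and 25.3 against 20.5, 19.9 and 19.4 CPM. Their log2 fold changes were 0.22 ± 0.06 (adjusted p = 0.0125) and 0.51 ± 0.10 (adjusted p = 0.000718) in edgeR's quasi-likelihood test. These genes and those that follow were chosen after their values were seen. Phgdh shares 47.8% of its 50-base stretches with other transcripts, most with Gm7901, and lost its call without shGAA 1 (adjusted p = 0.0874) or shScrambled 2 (adjusted p = 0.0666). Opposite-strand exons overlap 10.4% of the exonic bases of Psph.

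Odc1, which makes polyamines from ornithine, a product of imported arginine, was at 117, 113 and 112 CPM in shGAA 1 to 3 and at 268, 184 and 199 CPM in shScrambled 1 to 3. It fell by 0.93 ± 0.15 on the log2 scale (adjusted p = 0.00612), and by 0.75 without shScrambled 1 (adjusted p = 4.53e-16), and shares 24.3% of its stretches with other transcripts. Among ATF4 targets Stc2, a secreted glycoprotein gene, rose from 4.52 ± 1.48 to 9.79 ± 1.49 CPM (1.10 ± 0.20, adjusted p = 0.000441). Chac1, whose product degrades glutathione, rose by 0.66 ± 0.14 (adjusted p = 0.00142). Cebpb, a partner of ATF4, fell by 0.56 ± 0.15 (adjusted p = 0.0148). Without shGAA 1 or shGAA 3 its log2 fold change was -0.51 or -0.50 and the call was lost (adjusted p = 0.0609 and 0.0769), and opposite-strand exons overlap 20.7% of its exonic bases.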
